A study of Mus musculus with 2 samples.

Results

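Capillary endothelial nuclei of the mouse heart are described here from 2 single-nucleus RNA libraries, 1 labelled CF-KI and 1 labelled Control. A barcode was counted as a capillary nucleus if it had at least 200 genes, at most 30% mitochondrial UMIs (unique molecules), and at least 3 of 10 endothelial genes: Rgcc, Gpihbp1, Tcf15, Rbp7, Car4, Ly6c1, Btnl9, Cdh5, Pecam1 and Ptprb. At least 1 of Rgcc, Gpihbp1, Tcf15, Rbp7, Car4 or Btnl9 had to be among them. It also had to have fewer than 2 of 7 endocardial, venous or lymphatic genes (Npr3, Vwf, Tmem108, Cytl1, Bmx, Mmrn1, Reln) and at most 1 UMI over Pdgfra, Col1a1, Csf1r, Ptprc, Msln and Pdgfrb. This gave 1769 nuclei, 1191 in CF-KI and 578 in the control, of 23494 barcodes within the gene and mitochondrial limits (12598 and 10896) and 26334 in all.

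CF-KI mice were Tcf21-MerCreMer;Nlrp3-A350V/A350V and control mice Tcf21-MerCreMer;Nlrp3-WT/WT. All were male C57Bl6/J mice at 3.5 months of age that had received tamoxifen, so the controls carried the Cre driver and the drug too. Tcf21 drives Cre in fibroblasts, and the series record states that the altered Nlrp3 allele is silent in cells without Cre. Capillary endothelium is not the lineage it names. The tissue is given as cardiac, with no chamber, and the number of animals behind each library is not given in the sources used here. With 1 library per group, library and genotype cannot be told apart. There is no replicate check and no test, and every interval below is at 95% and covers counting error only.

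Capillary endothelium lines the exchange vessels that lie against the cardiomyocytes. It takes fatty acids from circulating lipoproteins: GPIHBP1 holds lipoprotein lipase on the luminal face, and CD36 and FABP4 carry the released fatty acids. VEGF and angiopoietin receptors maintain it, Notch and BMP signalling set its arteriovenous state, and it presents MHC class I and answers interferon readily.

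The CF-KI capillary nuclei held 1685027 non-mitochondrial UMIs and the control ones 826559, the denominators of the CPM values used throughout (UMIs of a gene summed over nuclei and scaled to a fixed total of non-mitochondrial UMIs). Where a pair of values stands without a library name, CF-KI comes first. Their median was 1389 UMIs and 815 genes in CF-KI, and 1170 UMIs and 748.5 genes in the control. Thinned to 500 UMIs, with 34 and 18 shallower nuclei left out, they had 384 and 382 genes. The libraries stood apart in mitochondrial RNA, with a median share of 10.8% in CF-KI capillary nuclei and 4.0% in the control. They shared 46 barcode sequences, of which 1 was a capillary nucleus in both. RNA from outside the nuclei was present: fibroblast, macrophage and mesothelial markers outside the rule reached a median of 41.1% of their whole-library CPM in CF-KI capillary nuclei and 25.01% in control ones. By the same measure the 14 cardiomyocyte markers ran the other way, at 65.6% and 96.7%, although their summed level was higher in CF-KI, 23324 and 14101 CPM; none was at 0. Myl2 was found in 75.02% of thinned CF-KI nuclei and 35.9% of control ones. The 4 airway epithelial markers were all at 0 in CF-KI and summed to 543 CPM in the control. The part of mitochondrial, cardiomyocyte and airway RNA in the differences below was not tested beyond the values given within mitochondrial ranges.

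The label was checked against genes that the rule did not use, as a description, since the same nuclei were chosen on endothelial RNA. The comparison gates were endocardial (590 CF-KI and 712 control nuclei), lymphatic (113 and 75), fibroblast (1968 and 2240) and all other kept barcodes. Of 12 capillary genes outside the rule, 12 were higher in capillary nuclei than in fibroblast nuclei in both libraries and 11 were higher than in endocardial nuclei, the exception being Egfl7. Fabp4, a fatty acid chaperone, stood at 17083 CPM in CF-KI capillary nuclei and 18433 CPM in control ones. In endocardial nuclei it was at 2413 and 1724 CPM, and in fibroblast nuclei at 877 and 319 CPM. The fatty acid receptor gene Cd36 had 3152 and 2652 CPM in capillary nuclei against 655 and 367 CPM in endocardial nuclei. The capillary nuclei thus carried the fatty acid genes at the highest levels of the 3 gates in the plot of levels by gate.

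**Figure D1:**
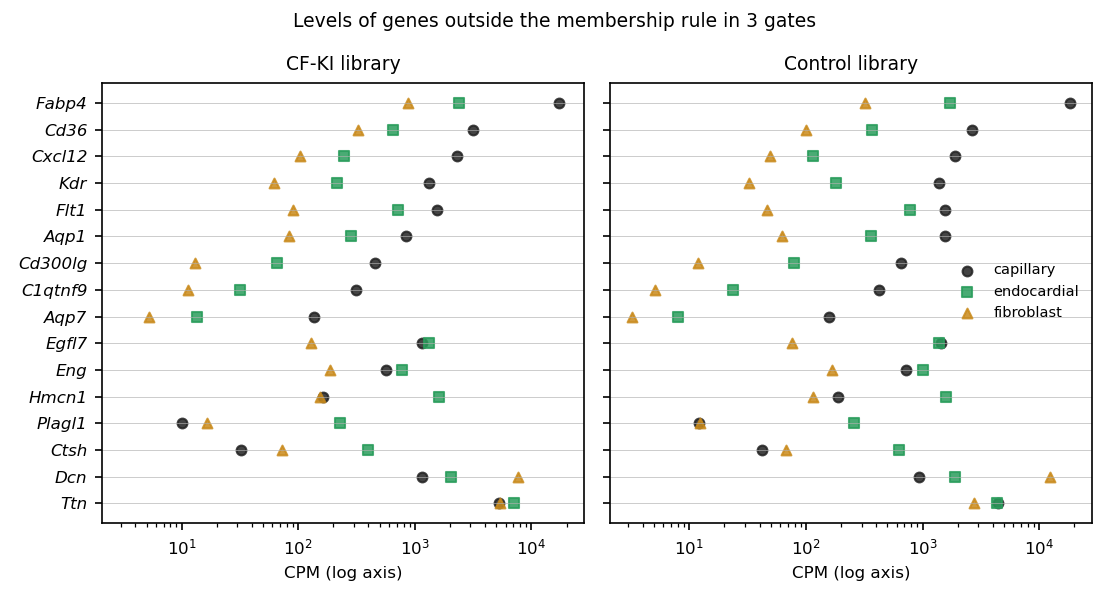
CPM on a log axis of 16 genes outside the membership rule in capillary, endocardial and fibroblast nuclei, the CF-KI library on the left and the control on the right. Fabp4, Cd36 and Cxcl12 are highest in capillary nuclei in both libraries, while Hmcn1, Plagl1 and Ctsh are highest in endocardial nuclei and Dcn in fibroblast nuclei.

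Of all genes outside the rule with at least 50 UMIs in the capillary nuclei of each library, the 12 with the highest fold over the other kept barcodes were Nos2, Depp1, Slc26a10, Eva1a, Cxcl12, Cd300lg, Gm12002, Kcna5, Aqp7, C1qtnf9, Cxcl9 and Efr3b. Cxcl12, the chemokine ligand of CXCR4, had 2291 and 1891 CPM. Aqp7 is a glycerol channel, and it had 135 and 158 CPM. Against endocardial nuclei the leading genes were Alpl, Depp1, Nos2, C1qtnf9, Aqp7, Cxcl12, Slc26a10 and Ctnnbip1. In the opposite direction, Plagl1, Inhba, Nrg1, H19, Epha7, Ctsh, Rasgef1b and Cdh11 were the 8 genes most in favour of endocardial nuclei. Nrg1, the neuregulin that signals to myocyte ErbB receptors, had 17 and 3 UMIs in capillary nuclei.

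RNA of genes known from pericytes was also counted in these nuclei. Rgs5, a pericyte marker, was at 2965 and 2281 CPM in capillary nuclei, and at 382 and 109 CPM in endocardial ones. After thinning, 56.6% of CF-KI and 44.1% of control capillary nuclei had an Rgs5 UMI, against 4.01% and 2.16% of fibroblast nuclei. Abcc9, another pericyte gene, had 201 and 131 CPM. Pdgfrb was limited by the rule and bears no weight here. Whether the Rgs5 RNA came from the same nuclei or from adjoining pericytes was not tested. The nuclei also differed from the rest in RNA make-up: the nuclear RNA Malat1 took 8.65% and 10.0% of non-mitochondrial UMIs, against 26.0% and 31.8% in the other kept barcodes. Ribosomal protein genes took 6.85% and 5.69%, against 2.47% and 1.60%.

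The rule genes themselves are given only to describe the selection. Gpihbp1 was found in 77.2% of CF-KI and 82.7% of control capillary nuclei, Rgcc in 68.3% and 61.2%, Tcf15 in 34.7% and 46.4%, and Car4 in 18.5% and 25.6%. In fibroblast nuclei, which should lack it, Gpihbp1 was found in 6.96% and 3.48%. Of barcodes that passed the endothelial part of the rule (1534 and 753), 143 and 98 were dropped for endocardial or lymphatic genes and 253 and 101 for genes of other types, with 53 and 24 dropped for both. Nuclei with exactly 3 rule genes (286 and 126) had 6872 and 4778 CPM of Fabp4. Barcodes with 2, just outside, numbered 476 and 191 and had 3440 and 2334 CPM.

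Capillary nuclei made up 9.45% of kept barcodes in CF-KI (exact binomial interval 8.95 to 9.98%) and 5.30% in the control (4.89 to 5.74%). The difference was 4.15 percentage points (3.49 to 4.81). Among capillary, endocardial and lymphatic nuclei together, the capillary share was 62.9% and 42.3%. Endocardial nuclei were 4.68% and 6.53% of kept barcodes, so the endothelial gates did not move together. The mitochondrial ranges did not give 1 answer: below 5% mitochondrial UMIs the shares were 4.2% in CF-KI and 5.18% in the control, the opposite order, within counting error. Between 5 and 10% they were 15.4% and 6.33%, between 10 and 20% they were 9.71% and 3.82%, and between 20 and 30% they were 6.42% and 6.31%. Only 7.98% of CF-KI capillary nuclei lay at or below 5%, against 61.2% of control ones, so the direction of the share rests on where the mitochondrial limit is set.

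**Figure D2:**
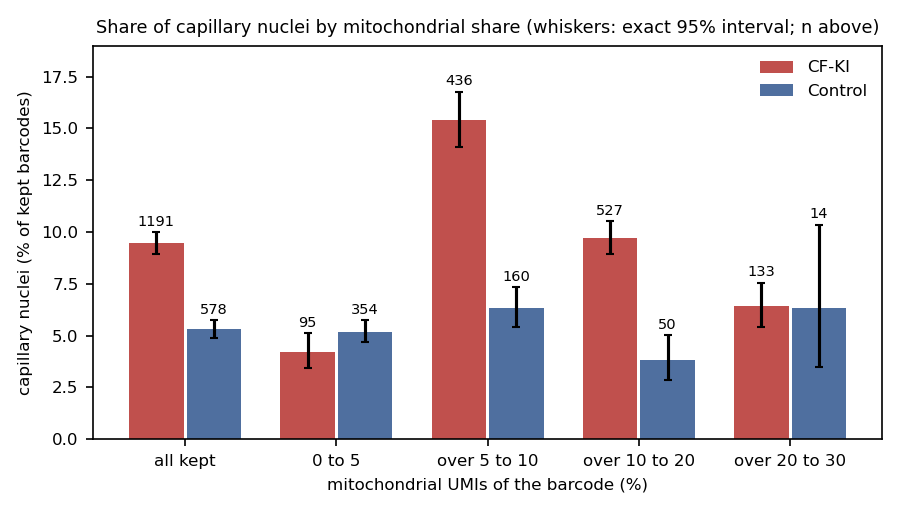
Capillary nuclei as a percentage of kept barcodes (vertical axis) in all kept barcodes and in 4 ranges of mitochondrial UMIs (horizontal axis); whiskers are exact 95% binomial intervals and numbers above the bars are capillary nuclei. CF-KI is higher over all kept barcodes (9.45% and 5.30%) and from 5 to 20%, lower at 0 to 5% (4.2% and 5.18%), and level at 20 to 30%.

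For expression, 9926 genes had at least 20 UMIs in the capillary nuclei of both libraries together. Log2 ratios are CF-KI over control, with 0.5 UMIs added to each count. Of these genes, 283 (2.85%) were at least 2-fold higher in CF-KI and 289 (2.91%) at least 2-fold lower. With at least 100 UMIs the numbers were 62 (1.37%) and 26 (0.573%) of 4538. The median log2 ratio of all 9926 genes was -0.07. TMM scaling moved every ratio up by 0.10, giving 374 higher and 205 lower, and median-of-ratios scaling moved them up by 0.08, giving 359 and 218. Under TMM scaling 17 of 21 Notch genes, 15 of 24 vascular tone genes and 11 of 21 VEGF genes described below were lower in CF-KI. Of all 9926 genes, 4692 were lower under that scaling, so the VEGF list was near the share of all genes. The 95% counting intervals of 1060 genes (10.7%) lay wholly below 0, of which 772 were lower in CF-KI in each of 3 mitochondrial ranges (0 to 5%, 5 to 10% and 10 to 30%). Those of 714 genes (7.19%) lay wholly above 0, of which 431 were higher in each range. The lists below are read against these medians and shares. Whether an interval excludes 0 depends on the UMIs of a gene as well as on its ratio. The lists were not matched to all genes in UMIs, so the interval shares are not like for like. Intervals lay wholly below 0 for 38.9% of the lipid list, 37.5% of vascular tone, 35% of leukocyte adhesion and 30.4% of BMP genes. For the shear list it was 29.2%, for VEGF 28.6%, for junctions 22.7%, for the retinoid list 15% and for the inflammasome list 7.14%. Intervals lay wholly above 0 for 16.7% of lipid, 17.4% of BMP, 15% of retinoid list and 8.33% of vascular tone genes, and at most 5% of the other lists.

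**Figure D3:**
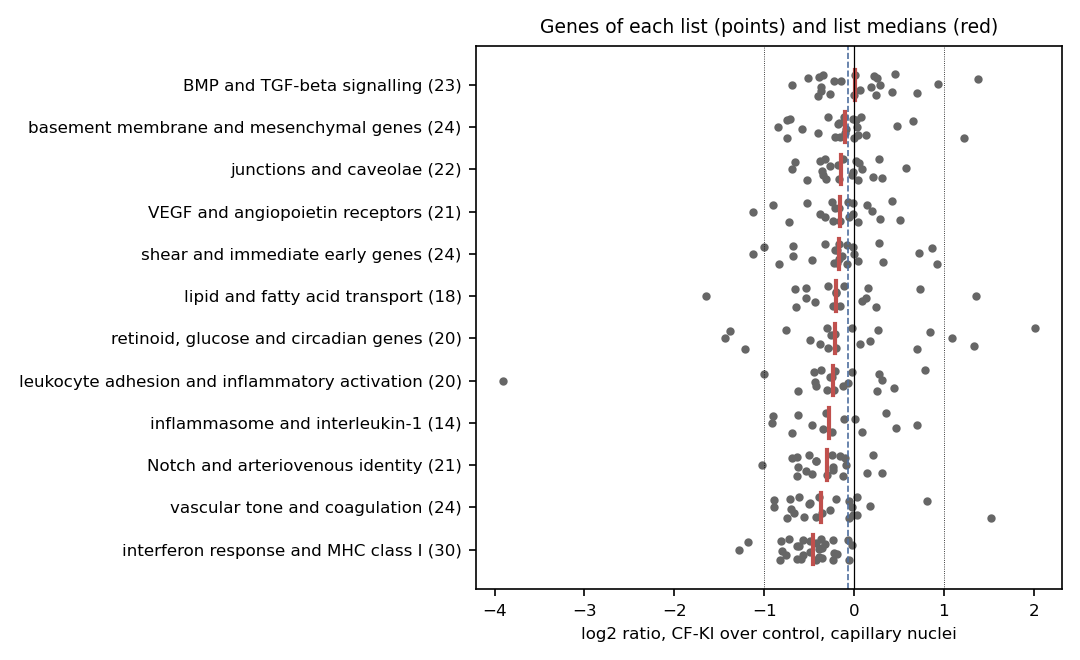
Log2 ratios (CF-KI over control) of the genes of 12 lists in capillary nuclei, 1 point per gene, with the number of genes in brackets; red bars are list medians, the dashed line is the median of all genes (-0.07) and dotted lines mark 2-fold. The interferon and MHC class I list has the lowest median (-0.46), and its 30 genes all lie below 0, 27 of them also under TMM scaling.

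In the lipid and fatty acid list, the receptor was slightly higher in CF-KI, the chaperone had no single direction across mitochondrial ranges, and the widest ratios lay in less abundant genes. The median log2 ratio was -0.20 over 18 of 20 genes, with 6 higher and 12 lower in CF-KI. Past 2-fold was 1 in each direction (5.56%, against 2.85% higher and 2.91% lower of all genes). Cd36 had a log2 ratio of 0.25 (0.18 to 0.32), and it was above the control in each of 3 mitochondrial ranges (0.16 at 0 to 5%, 0.58 at 5 to 10%, 0.22 at 10 to 30%). Its ratio was larger in the other gates, at 0.84 in endocardial nuclei, 1.69 in fibroblast nuclei and 1.08 in the other kept barcodes. Fabp4 had a log2 ratio of -0.11 (-0.14 to -0.08), made up of -0.38 (-0.43 to -0.32) at 0 to 5%, 0.33 (0.28 to 0.39) at 5 to 10% and 0.02 (-0.06 to 0.11) at 10 to 30% mitochondrial UMIs. Lpl, lipoprotein lipase itself, had 1474 and 1695 CPM, a log2 ratio of -0.20 (-0.30 to -0.11). Angptl4, a secreted inhibitor of that lipase, was the lowest of the list at 11.9 and 37.5 CPM (20 and 31 UMIs), a log2 ratio of -1.65 (-2.55 to -0.80). Vegfb, a ligand that promotes endothelial fatty acid uptake, was the highest at 38.6 and 14.5 CPM (65 and 12 UMIs), 1.36 (0.51 to 2.43). Pparg, a transcription factor of lipid uptake genes, was at -0.65 (-1.08 to -0.22), but at 0.38 with 10 to 30% mitochondrial UMIs.

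Over all capillary nuclei the VEGF receptor genes differed between the libraries by less than counting error, and several receptors beside them were lower in CF-KI. Kdr (VEGFR2) had 1325 and 1372 CPM, a log2 ratio of -0.05 (-0.15 to 0.05), and Flt1 (VEGFR1) had 1561 and 1573 CPM, -0.01 (-0.11 to 0.09). Their sign turned under TMM scaling and with the mitochondrial range: Kdr was at -0.11 (-0.30 to 0.08), 0.31 (0.10 to 0.53) and 0.22 (-0.09 to 0.57), and Flt1 at -0.14, 0.16 and 0.17, from the lowest range to the highest. Aplnr, the apelin receptor, had 103 and 225 CPM (174 and 186 UMIs), a log2 ratio of -1.12 (-1.43 to -0.82). It was lower in CF-KI at every mitochondrial range: -1.87 at 0 to 5%, -1.15 at 5 to 10% and -1.44 at 10 to 30%. Robo4, an endothelial guidance receptor that stabilises vessels, was at 101 and 190 CPM (-0.90), and Tie1, the partner of the angiopoietin receptor TEK, at 230 and 379 CPM (-0.72). Tek itself had 195 and 189 CPM (0.04, interval -0.23 to 0.33). Over the list of 21 measured genes the median was -0.15, with 6 higher and 15 lower. Past 2-fold lower was 1, Aplnr (4.76%, against 2.91% of all genes).

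Over all capillary nuclei, Notch and arteriovenous genes were mostly lower in CF-KI, by small amounts. The median was -0.30 over 21 genes, 3 higher and 18 lower, against 56.5% lower of all genes. The counting intervals of 12 (57.1%) lay wholly below 0, against 10.7% of all genes, not matched for UMIs, and none lay wholly above. Of these 12, 7 were lower in all 3 mitochondrial ranges, and the number lower of 21 was 19 at 0 to 5% but 12 in each of the higher ranges. Of all 9926 genes, 5536, 5804 and 5777 were lower in the 3 ranges, so the list was near the share of all genes above 5%. The list medians were -0.48, -0.18 and -0.27, against -0.10, -0.15 and -0.15 for all genes. Notch1 was at -0.30 (-0.52 to -0.08), its ligand gene Dll4 at -0.42 (-0.77 to -0.06) and the target Hes1 at -0.42 (-0.68 to -0.15). Notch1 and Hes1 were lower in each range, whereas Dll4 was at -0.54 at 0 to 5%, 0.22 (-0.47 to 1.02) at 5 to 10% and -0.06 (-1.17 to 1.54) at 10 to 30%.

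Arterial genes did not share a direction. The 10 arterial markers summed to 871 and 922 CPM. Sox17 was at -0.53, though at 0.08 with 10 to 30% mitochondrial UMIs, and Unc5b, an arterial guidance receptor, was at -0.64. Mecom, a transcription factor of arterial endothelium, was higher in CF-KI at 224 and 146 CPM, 0.61 (0.31 to 0.92), Gja4 was at 0.22 (-0.91 to 1.56), and Gja5 had 8 and 1 UMIs. The 7 venous markers summed to 244 and 313 CPM, with Ephb4 at -0.69, Nr2f2 at -0.64 and Vcam1 at 0.26 (-0.20 to 0.76).

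The share of nuclei in a state was counted as those with at least 2 genes of a state list after thinning to 500 UMIs. Arterial-like nuclei were 4.49% in CF-KI and 5.36% in the control, a difference of -0.86 points (-3.29 to 1.22). Before thinning they were 17.9% and 18.2%. In the thinned comparison gates the arterial-like share was 2.39% and 1.57% of endocardial and 0.99% and 1.30% of fibroblast nuclei. Venous-like nuclei were 4 of 1157 (0.346%) and 10 of 560 (1.79%), -1.44 points (-2.93 to -0.46), and the rule had limited Vwf in these nuclei. The angiogenic tip state and the cycling state were each found in 2 of 1157 and 3 of 560 nuclei, too few to tell apart. Before thinning, cycling nuclei were 4 of 1191 and 9 of 578.

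Junction and caveolar genes were near the all-gene median, at -0.15 over 22 genes (8 higher, 14 lower, none past 2-fold). Esam, an endothelial adhesion molecule at tight junctions, had 292 and 472 CPM, a log2 ratio of -0.69 (-0.89 to -0.50). Cavin1, which coats caveolae, had 497 and 780 CPM (-0.65, interval -0.80 to -0.50), while its partner genes Cav1 and Cavin2 were at 0.02 (-0.09 to 0.14) and -0.02 (-0.12 to 0.08). Gja1, encoding connexin 43, was the highest at 347 and 232 CPM, 0.57 (0.34 to 0.82); it was also higher in CF-KI fibroblast (1.5) and other kept barcodes (0.83), and it is a cardiomyocyte gene as well.

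In the list of vascular tone and coagulation, 5 genes were higher and 19 lower of 24, with a median of -0.37. The 19 were 79.2% of the list, against 56.5% lower of all genes. Aqp1, the water channel of capillary endothelium, was at 839 and 1557 CPM, a log2 ratio of -0.89 (-1.0 to -0.78). It was -1.32 at 0 to 5% and -1.16 at 5 to 10% mitochondrial UMIs, and -0.17 (-0.50 to 0.19) at 10 to 30%, where the control had 64 nuclei. Ramp2, the adrenomedullin co-receptor gene, had 531 and 748 CPM (-0.49) and its ligand Adm 19.6 and 36.3 CPM (-0.89). At 10 to 30% Adm had 20 and 0 UMIs, a ratio of 2.17 whose interval ran from -0.88 with no upper limit. Nos3, the endothelial nitric oxide synthase, had 92.6 and 93.2 CPM (-0.01, interval -0.41 to 0.40). Ptgds, a prostaglandin D synthase, was 1 of the 10 highest genes ranked at a minimum of 100 UMIs, at 102 and 35.1 CPM (172 and 29 UMIs), 1.52 (0.97 to 2.16). It was likewise higher in endocardial (1.56) and fibroblast (1.68) nuclei, and at 0.07 in capillary nuclei with 10 to 30% mitochondrial UMIs.

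BMP and TGF-beta genes had a median of 0.01 over 23 genes (13 higher, 10 lower). The inhibitors of DNA binding that BMP induces were lower over all capillary nuclei: Id1 had 1076 and 1423 CPM (-0.40, interval -0.51 to -0.30) and Id3 770 and 1010 CPM (-0.39). The difference in Id1 lay in the lowest mitochondrial range, at -0.67 (-0.89 to -0.46) with 0 to 5%, 0.07 (-0.14 to 0.30) with 5 to 10% and -0.14 (-0.45 to 0.20) with 10 to 30%. Id3 was at -0.57, -0.32 and 0.06 in these ranges. The co-receptor gene Eng was at -0.36 (-0.51 to -0.21). Receptor and SMAD genes of low count lay higher, among them Bmpr1a (55 and 10 UMIs, 1.37, interval 0.45 to 2.57), Smad2 (0.94) and Smad4 (0.43).

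Basement membrane and mesenchymal genes had a median of -0.10 over 24 genes, near that of all genes. The counting intervals of 8 (33.3%) lay wholly below 0, against 10.7% of all genes, not matched for UMIs, and that of 1 wholly above. Of these 8, 6 were lower in all 3 mitochondrial ranges. Hspg2 (perlecan), a heparan sulphate proteoglycan of the basement membrane, stood apart at 396 and 714 CPM, -0.85 (-1.01 to -0.69), and was lower in all 3 mitochondrial ranges (-1.04, -1.05 and -0.80). Col4a1 was at 1326 and 1409 CPM (-0.09) and Fn1 at -0.11 (-0.55 to 0.35). The mesenchymal regulators Zeb1 and Zeb2 were at 0.03 each, Twist1 had 10 and 4 UMIs and Snai1 2 and 3. The highest was S100a4, with 21 and 4 UMIs.

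Shear-responsive and immediate early genes had a median of -0.17 over 24 genes (7 higher, 17 lower, none past 2-fold up and 2 down). The 2 were 8.33% of the list, against 2.91% of all genes. The flow-induced factors Klf2 (1427 and 1509 CPM, -0.08) and Klf4 (464 and 490 CPM, -0.08) were within counting error. Egr1 had 63.5 and 127 CPM (-1.0, interval -1.40 to -0.60), and Hspa1a had 28 and 30 UMIs (-1.13). Both were lower in each mitochondrial range. Under TMM and median-of-ratios scaling the list had 1 gene past 2-fold in each direction, since Egr1 lay at the limit.

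Nlrp3, the altered gene, was near the limit of detection here. It had 7 UMIs in 6 CF-KI capillary nuclei (4.15 CPM) against 0 UMIs in control nuclei. Set against a floor of 3 control UMIs, its CF-KI level would be 1.14-fold that of the control. This is not a lower bound, since the 7 CF-KI UMIs carry counting error too, and the interval of the ratio included 0. Tcf21, which marks the Cre lineage, had 15 and 7 UMIs (8.90 and 8.47 CPM). Of the inflammasome and interleukin-1 list, 14 of 23 genes reached 20 UMIs, with a median of -0.28 (5 higher, 9 lower, none past 2-fold). Pycard and Casp1, the adaptor and the protease of the inflammasome, had 29 and 10 UMIs and 17 and 8 UMIs. Il1b had 1 and 0 UMIs. Il1r1, the receptor for interleukin-1, had 34.4 and 43.6 CPM (-0.35, interval -0.96 to 0.30). Txnip, a glucose-responsive gene that is also an NLRP3 partner, was the most abundant of the list at 865 and 1074 CPM, -0.31 (-0.44 to -0.19).

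Over all capillary nuclei, leukocyte adhesion and activation genes were more often lower in CF-KI. The median was -0.23 over 20 of 27 genes, 5 higher and 15 lower (75%, against 56.5% lower of all genes). The counting intervals of 7 (35%) lay wholly below 0, against 10.7% of all genes, not matched for UMIs, and that of 1 (5%) wholly above. Range by range, 10, 15 and 14 of the 20 were lower, from the lowest mitochondrial range to the highest, with medians of 0.01, -0.55 and -0.22. Of all 9926 genes, 5536, 5804 and 5777 were lower in these ranges, so at 0 to 5% the list was not more often lower than all genes. Vcam1 was at 77.2 and 64.1 CPM (0.26, interval -0.20 to 0.76) and Icam1 at 34.4 and 39.9 CPM (-0.22, interval -0.85 to 0.45). Icam2, a constitutive ligand of leukocyte integrins, was lower at 272 and 417 CPM (-0.62, interval -0.82 to -0.41), as was Mcam at 58.2 and 116 CPM (-1.0). Sele and Selp, the endothelial selectins, had 1 and 0 UMIs and 3 and 2 UMIs. Cxcl12 was higher at 0.28 (0.19 to 0.36), but at -0.01 with 0 to 5% mitochondrial UMIs. In the other gates it was higher in CF-KI by more, at 1.07 in endocardial nuclei, 1.09 in fibroblast nuclei and 1.57 in the other kept barcodes. Cxcl10 had 5 and 40 UMIs, and 39 of the 40 were in 1 control nucleus, so its ratio describes that nucleus.

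Interferon response and MHC class I genes had the lowest median of the 12 lists, -0.46, and all 30 were lower in CF-KI. Across all genes 56.5% were lower. The counting intervals of 21 (70%) lay wholly below 0, against 10.7% of all genes, not matched for UMIs. Of the 21, 16 were lower in all 3 mitochondrial ranges. Range by range, 24, 25 and 27 of the 30 were lower, with medians of -0.16, -0.57 and -0.78, where the medians of all genes were -0.10, -0.15 and -0.15. Past 2-fold were 2 genes, Rsad2 and Tap1 (6.67% of the list, against 2.91% of all genes). Under both other scalings 27 of 30 were lower, with B2m, Ddx58 and Ifitm3 above 0. Of all 9926 genes, 4692 were lower under TMM and 4826 under median-of-ratios scaling. The list was chosen with earlier results of these libraries known, so its direction is not independent evidence.

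Interferon-stimulated promoters often carry an interferon-stimulated response element, bound by STAT and IRF complexes. A pair of GAAA letters separated by any 2 bases, read on both strands with overlaps counted, were found in the 250 bases before the start of 12 of the 24 genes of the list that matched RefSeq (50%), and in 936 of 27025 genes (3.46%). Promoters of 4 of these genes are printed to show where the match lies, in lower case with the matched letters in capitals, 5′ to 3′ on the gene's strand, from RefSeq on GRCm38.p6. A match is a description of these letters and not a binding site.
Rsad2, chr12:26456453-26456702, minus strand: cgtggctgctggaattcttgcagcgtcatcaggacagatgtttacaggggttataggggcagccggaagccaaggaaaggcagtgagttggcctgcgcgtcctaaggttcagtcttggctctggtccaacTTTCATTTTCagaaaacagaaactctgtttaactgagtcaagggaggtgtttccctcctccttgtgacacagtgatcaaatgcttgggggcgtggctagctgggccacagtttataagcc
Ifit1, chr19:34640639-34640888, plus strand: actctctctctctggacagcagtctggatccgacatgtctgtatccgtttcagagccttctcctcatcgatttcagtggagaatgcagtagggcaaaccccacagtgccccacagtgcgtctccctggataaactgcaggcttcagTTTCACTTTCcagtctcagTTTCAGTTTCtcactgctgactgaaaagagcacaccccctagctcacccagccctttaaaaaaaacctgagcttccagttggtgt
Ifit3, chr19:34583279-34583528, plus strand: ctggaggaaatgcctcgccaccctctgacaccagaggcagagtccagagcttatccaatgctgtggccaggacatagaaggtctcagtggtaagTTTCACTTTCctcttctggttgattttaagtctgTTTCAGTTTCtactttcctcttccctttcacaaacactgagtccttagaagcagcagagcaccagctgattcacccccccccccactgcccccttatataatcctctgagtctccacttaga
Isg15, chr4:156200819-156201068, minus strand: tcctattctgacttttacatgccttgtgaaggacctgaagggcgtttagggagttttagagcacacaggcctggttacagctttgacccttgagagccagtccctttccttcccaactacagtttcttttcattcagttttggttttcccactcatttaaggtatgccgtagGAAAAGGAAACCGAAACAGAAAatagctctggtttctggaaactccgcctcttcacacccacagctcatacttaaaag
The first bases of the matches lie 120 bases before the start in Rsad2, 104 and 85 in Ifit1, 156 and 122 in Ifit3, and 78, 72 and 66 in Isg15, where 3 matches overlap.

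Rsad2 encodes viperin, an antiviral radical SAM enzyme. It was at 162 and 393 CPM (273 and 325 UMIs), a log2 ratio of -1.28 (-1.52 to -1.04). It was found in 15.5% of CF-KI and 24.2% of control capillary nuclei. It was lower in CF-KI at 0 to 5% (-0.50), 5 to 10% (-1.93) and 10 to 30% (-1.85) mitochondrial UMIs. The nucleus that held most Cxcl10 had 69 of the 325 control UMIs. Without the 5 richest nuclei of each library the ratio was -0.89. In the other kept barcodes it lay the other way, at 0.53. Cmpk2, a nucleotide kinase gene near Rsad2 on chromosome 12, was at 38.6 and 96.8 CPM, -1.33 (-1.82 to -0.84), and -0.64 without its 5 richest nuclei. The antiviral genes Ifit1 (-0.76), Ifit2 (-0.73) and Ifit3 (-0.63) were lower over all capillary nuclei. Ifit1 was at -0.01, 0.19 and -2.41 and Ifit2 at 0.16, -0.69 and -2.16 in the 3 mitochondrial ranges, so that neither kept its direction, and Ifit3 was at -0.85, -0.78 and -1.05. Without the 5 richest nuclei of each library Ifit1 was at -0.69, Ifit2 at -0.30 and Ifit3 at -0.45. Isg15, a ubiquitin-like modifier, was at -0.39 (-0.71 to -0.07) and came to -0.02 without them. Removing 5 nuclei takes a larger part of the 578 control nuclei than of the 1191 CF-KI ones, and the UMI totals were kept. For Isg15 it took 49 of 136 control UMIs and 37 of 212 CF-KI UMIs. The trimmed ratios in this paragraph therefore lean upward by construction.

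The MHC class I heavy chain genes H2-K1 and H2-D1 were lower by smaller amounts and in every range. H2-K1 had 843 and 1188 CPM (1421 and 982 UMIs), -0.49 (-0.61 to -0.38), and was at -0.67, -0.58 and -0.36 in the 3 mitochondrial ranges. H2-D1 had 1155 and 1549 CPM, -0.42 (-0.53 to -0.32), and was at -0.60, -0.56 and -0.45. These are near-identical paralogues, so reads may be shared between them. Tap1, which pumps peptides to MHC class I, had 43 and 48 UMIs (-1.18, interval -1.81 to -0.56). It was at -0.67, -1.63 and 0.09 in the 3 ranges, the last with 14 and 1 UMIs. Its partner Tap2 was at -0.80, and lower in each range. B2m, the shared light chain, was at 1233 and 1295 CPM (-0.07, interval -0.18 to 0.04), and at -0.04, 0.34 (0.13 to 0.57) and -0.31 in the ranges. H2-K1 was also lower in endocardial (-0.51) and fibroblast (-0.44) nuclei, and H2-D1 at -0.43 and -0.26. The list had 9 of 28 genes higher in endocardial nuclei and 7 of 29 in fibroblast nuclei, with medians of -0.36 and -0.31. Its MHC class I genes had medians of -0.42 in capillary, -0.43 in endocardial and -0.36 in fibroblast nuclei. The interferon genes that define the state described below had medians of -0.68, 0.17 and -0.34. Whether the capillary difference exceeds that of the other gates was not tested.

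**Figure D4:**
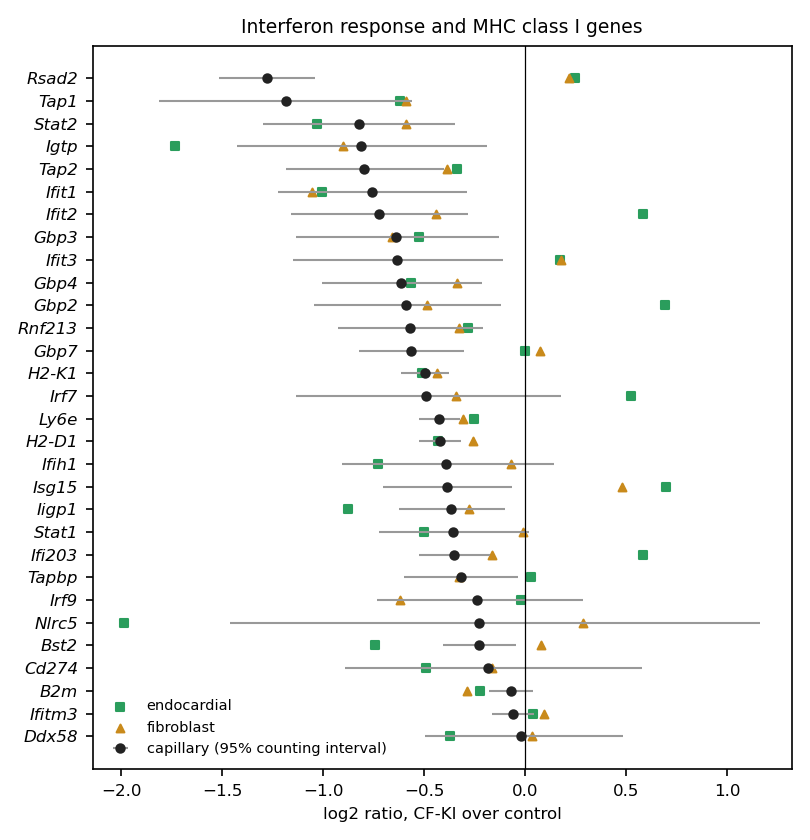
Log2 ratios (CF-KI over control, horizontal axis) of 30 interferon response and MHC class I genes in capillary nuclei (circles with 95% counting intervals), endocardial nuclei (squares) and fibroblast nuclei (triangles). All circles lie below 0 (27 under TMM scaling), from Rsad2 at -1.28 to Ddx58 at -0.02, while Rsad2, Isg15 and Ifit3 lie above 0 in the other gates.

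An interferon state, at least 2 of 8 interferon genes in a thinned nucleus, was found in 33 of 1157 nuclei (2.85%, interval 1.97 to 3.98%) against 47 of 560 (8.39%, 6.23 to 11%). The difference was -5.54 points (-8.26 to -3.23), and -6.14 points before thinning (11.3% and 17.5%). The state was rarer elsewhere, at 1.29% and 1.42% of endocardial and 0.417% and 0.539% of fibroblast nuclei. Within mitochondrial ranges it was 5.26% and 10.4% at 0 to 5%, 3.94% and 3.87% at 5 to 10%, and 1.74% and 8.62% at 10 to 30%. The differences were -5.11 points (-9.84 to 1.93), 0.07 points (-4.49 to 3.16) and -6.88 points (-16.9 to -1.81), so the interval excluded 0 in the last range only, where the control share is 5 of 58 nuclei. The most extreme nucleus was the control nucleus with 39 Cxcl10 UMIs: of its 2601 UMIs, 69 were Rsad2, 20 Cxcl9, 17 Cmpk2, 10 Isg15 and 9 Ifit2. It had 9 of the 10 rule genes.

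Among ranked genes with at least 100 UMIs, a retinoid gene had the lowest ratio apart from the airway genes. Ribosomal protein and unnamed (Gm, Rik) genes were left out of this ranking, and counts under 3 were set to 3. Cyp26b1 (chromosome 6, 84571414 to 84593908, minus strand, GRCm38), an enzyme that breaks down retinoic acid, had 15 CF-KI and 131 control UMIs, 8.90 and 158 CPM. Its log2 ratio was -4.11 (-5.03 to -3.38). It was found in 12 of 1191 nuclei (1.01%) against 87 of 578 (15.1%), and no nucleus held more than 4 UMIs. At 0 to 5% mitochondrial UMIs it was at 13.4 and 132 CPM, at 5 to 10% at 6.91 and 187 CPM, and at 10 to 30% at 9.48 and 271 CPM. The control was higher in each range, by log2 ratios of -3.08, -4.64 and -4.77. In the other gates the gene was lower in CF-KI by less: 28.5 and 69.3 CPM in endocardial nuclei (-1.26), 0.869 and 3.51 CPM in fibroblast nuclei, and 5.12 and 13.8 CPM in the other kept barcodes. In the control, capillary nuclei had the highest Cyp26b1 level of the 5 gates.

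Dhrs3, a retinaldehyde reductase that retinoic acid induces, had 103 and 267 CPM (173 and 221 UMIs), -1.38 (-1.68 to -1.09), and was found in 13.8% and 28.7% of nuclei. It was lower in CF-KI at 0 to 5% (-2.05) and 5 to 10% (-1.22), and at 10 to 30% its interval reached 0 (-0.81, interval -1.58 to 0.13). Control nuclei with Cyp26b1 had Dhrs3 in 31.0%, and those without it in 28.3%. Rarb, another retinoic acid target, had 22 of 1685027 and 10 of 826559 non-mitochondrial UMIs, levels that were close in CPM. Rarg was at -0.30 (-0.78 to 0.21). In the whole list of retinoid, glucose and circadian genes, 8 were higher and 12 lower of 20. Past 2-fold were 3 in each direction (15%, against 2.85% higher and 2.91% lower of all genes). Cyp26b1 was not on that list and is named as among the 10 lowest of the genes ranked at a minimum of 100 UMIs.

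Clock genes differed in opposite directions. Nr1d1 (REV-ERB alpha), a repressor whose level peaks by day in mice, had 65.9 and 15.7 CPM (111 and 13 UMIs), 2.02 (1.23 to 3.02), and its paralogue Nr1d2 had 80.7 and 37.5 CPM, 1.09 (0.53 to 1.72). Cry1 and Per2, of the negative limb, were lower, with 21 and 28 UMIs (-1.43, interval -2.33 to -0.57) and 14 and 16 UMIs (-1.21, interval -2.37 to -0.09). Nr1d1 was 3.03 at 0 to 5%, and within counting error at 5 to 10% (1.22) and 10 to 30% (0.69). Nr1d1 was also higher in endocardial (1.08) and fibroblast (1.89) nuclei, whereas Cry1 was at 0.24 and -2.63 there. The hour of tissue collection is not given in the sources used here. Slc2a4, the insulin-responsive glucose transporter, had 79 and 15 UMIs (1.33); it was higher in fibroblast nuclei as well (1.87).

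**Figure D5:**
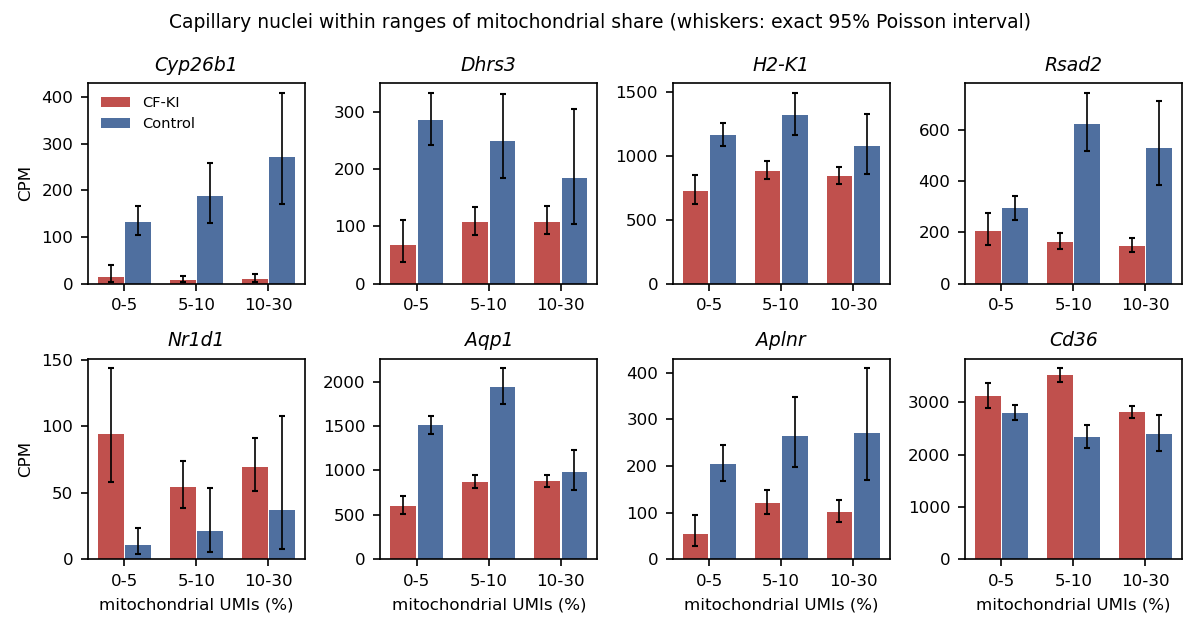
CPM (vertical axis) of 8 genes in capillary nuclei of the CF-KI and control libraries at 0 to 5%, 5 to 10% and 10 to 30% mitochondrial UMIs (95 and 354, 436 and 160, 660 and 64 nuclei); whiskers are exact 95% Poisson intervals. Cyp26b1, H2-K1, Rsad2 and Aplnr are lower in CF-KI in each range, while Aqp1 (878 and 985 CPM) and Nr1d1 overlap at 10 to 30%.

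Genes with at least 100 UMIs were ranked without ribosomal protein and unnamed genes. The 10 highest in CF-KI were Hbb-bs, Hba-a1, Hbb-bt, Hba-a2, Nr1d1, Cox7a1, Mrps36, Ptgds, Tcap and Smpx, of which 4 are haemoglobin genes and Cox7a1, Tcap and Smpx are muscle genes. Hbb-bs had 5087 and 344 UMIs (2.86), with haemoglobin UMIs in 83.2% of CF-KI and 45.0% of control capillary nuclei, and 1 CF-KI nucleus held 5023 haemoglobin UMIs among 7698. Cox7a1 was higher in CF-KI in fibroblast (2.41) and endocardial (2.17) nuclei too. The 10 lowest were Scgb1a1, Bpifa1, Cyp26b1, Nts, Pim1, Dhrs3, Cmpk2, Rsad2, Vwf and Fhod1. Scgb1a1 and Bpifa1 are airway secretory genes with 275 and 121 control UMIs, respectively, and none from CF-KI. Nts, the neurotensin precursor, had 40 and 68 UMIs (-1.79, interval -2.39 to -1.21), and the kinase gene Pim1 45 and 60 UMIs (-1.44, interval -2.03 to -0.86). Vwf was limited by the rule.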

How the data were processed

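Cardiac nuclei of 1 CF-KI and 1 control mouse library were measured with a 10x Genomics 3′ v3 kit. The authors deposited UMI counts per gene and barcode, made with Cell Ranger 6.1.1 per the file headers and the submitters' processing notes, which name mm10; settings of alignment and cell calling are not given in the sources used here. The deposited barcodes had at least 500 UMIs. Features sharing a symbol were summed, giving 32245. UMIs were summed over nuclei per gate and library. Intervals are exact Poisson (CPM), conditional binomial (log2 ratios), Clopper-Pearson (shares) and Newcombe (differences of shares). Ratios use genes with at least 20 UMIs; past 2-fold is a size and not a test. Doublets were kept, since Scrublet (scanpy 1.11.5) marked 1 of 12598 CF-KI barcodes and did not work there (328 of 10896 control barcodes). Positions are from GENCODE vM21 (GRCm38). Scaling factors came from edgeR 4.0.16 and DESeq2 1.42.0 in R 4.3.3. The members and lists were chosen with earlier results of these data known. Named genes are the 4 highest and 4 lowest and the most abundant of each list, the 10 at either end of the ranking at a minimum of 100 UMIs, the leading genes against other gates, Nlrp3, Tcf21 and marker genes. That ranking left out mitochondrial, ribosomal protein and unnamed (Gm, Rik) genes and set counts under 3 to 3. Other genes named were chosen after their values were seen. The scripts were tested on simulated data.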

Additional observations from a re-analysis of the deposited data

Results flagged for a closer look

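The values of 4 genes lay in opposite directions in capillary and endocardial nuclei of the same libraries, with both counting intervals excluding 0. The difference between the gates was not tested. Fabp4 had log2 ratios (CF-KI over control) of -0.11 in capillary and 0.48 in endocardial nuclei. Lpl had -0.20 and 0.96. Id1, a BMP target, had -0.40 and 0.28. Nts, the neurotensin precursor, had -1.79 and 1.28. For 3 of the 4 the capillary direction turned in other settings: Fabp4 was at 0.33 with 5 to 10% mitochondrial UMIs and 0.12 with free RNA subtracted, Id1 at 0.07 (-0.14 to 0.30) with 5 to 10%, and Nts at 0.66 with 10 to 30%, where it had 21 and 1 UMIs. Lpl was lower in CF-KI in all 3 mitochondrial ranges.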

How the results depend on the processing

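With 1 library per group, no value has a replicate check. Of 274 alternative values for 20 summary results, 248 stayed within a set spread, 24 moved and 2 reversed. Of 749 for 47 single genes, 612 stayed, 124 moved and 13 reversed. The spread was the counting interval for shares and single genes. For list medians it was the median of the members' interval limits, and for gene counts a fixed fold range. A value was called reversed only where the main interval excluded 0, so other changes of sign, as in the lipid list (-0.20 to 0.20), are not counted as reversed. The cause was not tested. The difference in capillary share (4.15 points) became -0.98 at a limit of 5% and 4.93 at 10%, 9.06 at 5 to 10%, 7.26 with at least 500 genes, 3.04 with at least 4 rule genes, 3.11 with 0 UMIs of other types and 12.999 with at most 2% cardiomyocyte UMIs. At 10 to 30% the lipid list was at 0.20 and the interferon list at -0.97, and at a limit of 5% the basement membrane list was at -0.35. These medians apply the minimum of 20 UMIs within the range. Over the genes that reached it in all capillary nuclei, the lipid and interferon medians at 10 to 30% were 0.10 and -0.78. Genes at least 2-fold higher (283) numbered 62 at a minimum of 100 UMIs, 1404 at 1 UMI and 514 at 10 to 30%. Those lower (289) numbered 26 and 2543 at these minimums, 549 at a limit of 5%, 579 with free RNA subtracted, 458 at 5 to 10% and 585 at 10 to 30%. The interferon state difference (-5.54 points) was -2.62 with at least 3 genes and 0.073 at 5 to 10%. The venous state (-1.44) was -3.25 unthinned, 0.0 with at least 3 genes and -4.86 at 10 to 30%, where the angiogenic state was -1.41 and the cycling state -1.72. Single genes reversed as follows: at a limit of 5%, Cxcl10 2.04, Ifit2 0.16 and Cxcl12 -0.014; at 5 to 10%, Ifit1 0.19, Fabp4 0.33, Dll4 0.22 and Id1 0.072; at 10 to 30%, Tap1 0.089, Fabp4 0.023 and Nts 0.66; with free RNA subtracted, Fabp4 0.12 and Hbb-bs -6.30; with at most 2% cardiomyocyte UMIs, Fabp4 0.031. The ranges of 5 to 10% and 10 to 30%, the removal of the highest Scrublet scores at the expected rate (1520 and 981 barcodes) and the removal of the 5 richest nuclei were chosen after seeing the data. Removal of called Scrublet doublets was not run, since the caller did not work in CF-KI. No paired analysis was possible because each group has 1 library. Depth limits genes of few UMIs, such as Nlrp3 (7 and 0).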
